A study of Rattus norvegicus with 4 samples.

Results

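The plasminogen activator system was described through 4 genes, all found by symbol among the 17768 genes of the deposited table: the activator genes Plat and Plau, the receptor gene Plaur and the inhibitor gene Serpine2. The rule picks the members by name and uses no measured value, but earlier results of these data were known when they were chosen. RNA was sequenced from 4 libraries of NRK-52E, an epithelial line from normal rat kidney labelled as proximal tubular, as 2 libraries of the group lv_nc and 2 of the group lv_Mettl3. According to the labels a murine Mettl3 cDNA in the lentiviral vector pLVX-IRES-Puro was used to make a stable line kept in puromycin, and all 4 libraries carry the label untreated. Mettl3 encodes the enzyme that writes N6-methyladenosine on RNA. The labels give neither the meaning of nc nor the vector of those cells. They do not tie the replicates to separate cultures, so the p-values cover the variation among these 4 libraries and no more, and that variation may be technical.

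Plasminogen activators are serine proteases that cleave plasminogen into plasmin, the protease that dissolves fibrin and also cuts matrix proteins and latent growth factors. Tissue-type activator, the product of Plat, works mainly on fibrin and on cell surface plasminogen receptors, while urokinase, the product of Plau, is held at the cell surface by its receptor, the GPI-anchored protein encoded by Plaur. Serpins stop both activators by forming covalent complexes with them, and these complexes are taken up through receptors of the LDL receptor family. Urokinase was first found in urine, and the renal tubule is a major site of its synthesis.

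The series' own checks bear on every value below. In RNA from whole cultures, fewer cells of a type and less RNA per cell cannot be told apart. Recovered gene reads ran from 15068898 to 16622255 per library. The rat Mettl3 gene had normalized read counts of 719 and 767 in lv_nc and of 757 and 700 in lv_Mettl3, so the groups overlapped (limma log2 fold change -0.03, 95% interval -0.31 to 0.25, adjusted p = 0.931). Reads of the introduced murine cDNA need not be counted in that row, so it does not check the labels. Each direction below is given by the labels, as the library labelled lv_Mettl3 against the library labelled lv_nc. Replicates differed more in lv_nc than in lv_Mettl3: the log2 difference between them had an SD of 0.41 against 0.29 over the 10051 genes with a mean of 100 or more. Of the markers that define the labelled cell type, the megalin gene Lrp2 and the keratin gene Krt19 each had between 0 and 2 reads per library. Cdh1 had between 1 and 9, while Krt8 had 28296 to 33065 normalized reads. The epithelial marker symbols Epcam and Krt18 matched no row. DESeq2 shares of all genes, here and below, are over the 12601 genes with an adjusted p, of which it called 2.52%. Of the 5 proximal tubule markers in the table DESeq2 called 1. This was the brush border peptidase gene Ggt1, with 2412 and 2530 in lv_nc against 3294 and 3757 in lv_Mettl3 (DESeq2 adjusted p = 0.0345). Its limma adjusted p was 0.378. Cubn and Slc5a2 had DESeq2 log2 fold changes of -0.57 and 0.24. Aqp1, with 0 to 7 reads per library, and Lrp2 had negative log2 fold changes in DESeq2 and no adjusted p. The 4 fibroblast markers found in the table summed to between 9561 and 15770 in lv_nc and between 2384 and 2961 in lv_Mettl3. DESeq2 called 3 of them lower (Col1a1, Col3a1 and Acta2), where it called 1.07% of all genes lower. Limma called none of these 3, with adjusted p of 0.299, 0.214 and 0.452. The other marker, Pdgfra, had 1 to 3 reads per library and a DESeq2 log2 fold change of 1.13, without an adjusted p. The part of these markers in the results below was not tested. Of the 3 endothelial markers in the table the sum was at most 37.2 in any library. The 4 macrophage and leukocyte markers found summed to between 1810 and 2173 over all libraries, nearly all of it Cd14.

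Promoter windows, from 250 bases before to 50 bases after the annotated start, were found for 3 of the 4 members in the RefSeq table (build GRCr8). They are shown for the receptor gene, the only member that passed a test (DESeq2) over all 4 libraries, for its ligand's gene, which had few reads, and for the inhibitor gene. Capitals mark the AP-1 motif TGANTCA in Plaur and the SP1 motif GGGCGG in the other two, on either strand.
Plaur, chr1:89181113-89181412, plus strand: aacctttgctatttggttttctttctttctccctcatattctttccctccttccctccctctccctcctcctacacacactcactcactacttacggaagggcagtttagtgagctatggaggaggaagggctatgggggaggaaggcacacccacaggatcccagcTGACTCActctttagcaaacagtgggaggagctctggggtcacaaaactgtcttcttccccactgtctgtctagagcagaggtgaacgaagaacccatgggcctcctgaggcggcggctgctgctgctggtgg
Plau, chr15:3511938-3512237, minus strand: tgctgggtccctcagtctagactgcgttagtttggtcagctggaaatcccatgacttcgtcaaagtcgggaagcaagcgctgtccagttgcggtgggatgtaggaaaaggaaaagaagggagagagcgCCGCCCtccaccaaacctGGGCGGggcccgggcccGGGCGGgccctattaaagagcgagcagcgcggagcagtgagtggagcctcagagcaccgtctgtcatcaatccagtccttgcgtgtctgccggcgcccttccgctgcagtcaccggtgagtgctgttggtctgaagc
Serpine2, chr9:88637153-88637452, minus strand: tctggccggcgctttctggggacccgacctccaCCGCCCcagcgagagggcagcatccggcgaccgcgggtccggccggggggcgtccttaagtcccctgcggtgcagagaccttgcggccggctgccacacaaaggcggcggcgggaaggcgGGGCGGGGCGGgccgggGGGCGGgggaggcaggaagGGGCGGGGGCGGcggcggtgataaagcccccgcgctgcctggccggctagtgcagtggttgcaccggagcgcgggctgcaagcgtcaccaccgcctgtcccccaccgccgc

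The Plaur window held 1 AP-1 match, which begins 83 bases before the start and reads on both strands, while the SP1 motif was not found in it. The AP-1 motif occurred in 7.33% of the 33469 rat promoter windows of the same length. The Plau window held 3 GGGCGG matches, 122, 104 and 87 bases before the start, and the Serpine2 window 6, from 217 to 55 bases before it, of which a pair overlaps. The SP1 motif occurred in 33.1% of all windows. No AP-1 match was found in the Plau or Serpine2 window. The ETS motif CCGGAA, present in 15% of windows, and the NF-kB motif, present in 7.51%, were in none of the 3, and the ETS core GGAA, which is part of CCGGAA and occurred in 95.8%, was found 6 times in Plaur, 5 times in Plau and 2 times in Serpine2. G and C made up 54% of the Plaur window, 61% of the Plau window and 77% of the Serpine2 window. These matches are letters in a window and not measured binding sites.

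Transcripts of the receptor and of the tissue-type activator were abundant, while those of urokinase were close to absent. Levels between genes are compared as normalized reads per kilobase of the deposited gene length. On that scale the mean over the 4 libraries was 1223 for Plaur, 610 for Plat, 242 for Serpine2 and 2.04 for Plau. Within lv_nc the order was Plaur (978 ± 33.3, SD, n = 2), Plat (678 ± 188), Serpine2 (272 ± 60.1) and Plau (1.01 ± 0.0406). In lv_Mettl3 the order was the same, with Plaur at 1467 ± 170, Plat at 542 ± 2.55, Serpine2 at 212 ± 7.20 and Plau at 3.07 ± 0.450. No pair of neighbours in this order overlapped between libraries of a group. The nearest were Plaur and Plat in lv_nc replicate 2, at 955 and 811 per kilobase. By mean normalized count, 84.4% of the 16391 genes tested by limma lay at or below Plat, 80.6% at or below Plaur, 62.0% at or below Serpine2 and 13.1% at or below Plau.

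**Figure D1:**
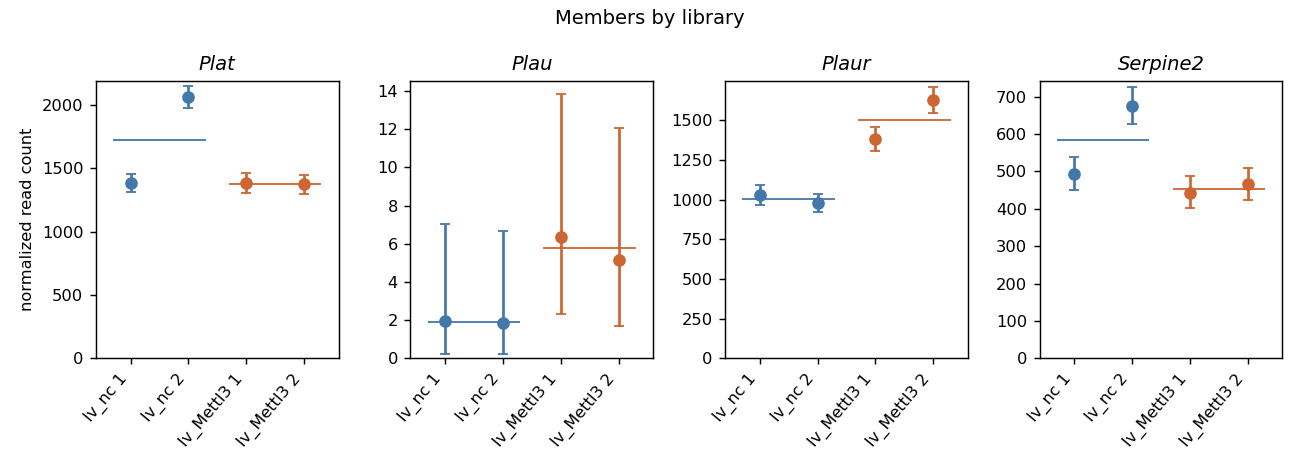
Normalized read counts of Plat, Plau, Plaur and Serpine2 in each library (vertical axes from 0, each with its own scale). Points are libraries with exact 95% Poisson intervals of the recovered reads, which cover counting error only, and horizontal lines are group means. Plaur is higher in the lv_Mettl3 libraries (1380 and 1627) than in the lv_nc libraries (1027 and 979), lv_nc replicate 2 stands above the other 3 libraries for Plat and Serpine2, and Plau lies under 7 in every library.

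How the members compared between the groups was tested with limma on log2(value + 1) over all genes, with Benjamini-Hochberg adjustment, and with DESeq2 and edgeR on the recovered reads. All 4 members passed limma's filter (2 or more libraries with a value of 1 or higher), and limma called 0 of 4, where it called 0.0183% of all genes tested. At an unadjusted limma p under 0.05 there was 1 of 4 (Plaur), where 10.5% of all genes were. DESeq2 gave an adjusted p for 3 members and called 1, Plaur, higher, where 1.45% of the 12601 genes with an adjusted p were called higher and 1.07% lower, 2.52% in all. The quasi-likelihood test of edgeR tested 3 members, without Plau, and called 0, where it called 0.0381% of its genes; at an unadjusted p under 0.05 it had 1 of 3 (Plaur), where 11.8% of its genes were. Both libraries of one group lay above both of the other for all 4 members, 2 higher and 2 lower in lv_Mettl3, against 45% of all genes tested (23.5% higher and 21.5% lower). For Plat this rests on 1384.4 in lv_nc replicate 1 against 1383.6 in lv_Mettl3 replicate 1. For Plau it rests on 2 reads in either lv_nc library against 6 and 5 in lv_Mettl3.

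The receptor gene Plaur (ENSRNOG00000037931, chromosome 1, 81328183 to 81344708, plus strand) is placed here and below by the authors' own coordinates, whose genome build is not given. Its normalized read counts were 1027 in lv_nc replicate 1, 979 in lv_nc replicate 2, 1380 in lv_Mettl3 replicate 1 and 1627 in lv_Mettl3 replicate 2. Each lv_Mettl3 library was above each lv_nc library, and their exact 95% Poisson counting intervals did not meet, the lv_nc intervals ending at 1091 and the lv_Mettl3 intervals starting at 1306. These intervals, here and below, cover counting error only, since reads without molecular identifiers are not independent molecules. Plaur rose 1.50-fold in DESeq2 (log2 fold change 0.58, SE 0.17, adjusted p = 0.0348). In limma the log2 fold change was 0.58 (95% interval 0.28 to 0.88, SE 0.12), with an adjusted p of 0.378, and the adjusted p of edgeR was 0.246, at a log2 fold change of 0.59. The authors' deposited values for Plaur, 0.58 and an adjusted p of 0.0348, matched the DESeq2 run here, with 318 genes called in each. They are not a separate result. The replicates differed by 1.05-fold in lv_nc and 1.18-fold in lv_Mettl3, both less than the difference between the groups.

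Plaur kept its direction with any 1 library left out, which was likely beforehand because its groups did not overlap. Without lv_nc replicate 1 the DESeq2 log2 fold change was 0.62, and without lv_nc replicate 2 it was 0.55. Without lv_Mettl3 replicate 1 or 2 it was 0.69 or 0.46, with an SE of 0.29 or 0.30 against 0.17 over all 4 libraries. Each of these fits has 1 library in a group, so they cannot tell whether the DESeq2 call depended on a single library. With the replicate number as a block, over all 4 libraries, the call of Plaur ended, at a log2 fold change of 0.58 (DESeq2 adjusted p = 0.0783).

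The tissue-type activator gene Plat (ENSRNOG00000019018, chromosome 16, 74098260 to 74122889, minus strand) had normalized read counts of 1384 in lv_nc replicate 1, 2060 in lv_nc replicate 2, 1384 in lv_Mettl3 replicate 1 and 1374 in lv_Mettl3 replicate 2. Only lv_nc replicate 2 stood apart. The other 3 libraries were within 10 normalized counts of each other, and lv_nc replicate 1 exceeded the higher lv_Mettl3 library by less than 1. The group means were 1722 ± 478 and 1379 ± 6.49 (SD, n = 2), a limma log2 fold change of -0.29 (95% interval -0.80 to 0.22, SE 0.20, adjusted p = 0.604) and a DESeq2 log2 fold change of -0.32 (SE 0.20, adjusted p = 0.656). The difference was smaller than the spread between the lv_nc replicates, whose ratio was 1.49. Without lv_nc replicate 2 the DESeq2 log2 fold change of Plat was -0.01, and without lv_nc replicate 1 it was -0.58. Either fit rests on 1 lv_nc library, so only the sizes are given. The summed fibroblast markers were likewise highest in lv_nc replicate 2, at 15770 against 9561 in lv_nc replicate 1. Col1a1 and Col3a1 made up most of that sum, while Acta2 went the other way, with 748 in lv_nc replicate 2 against 1531 in lv_nc replicate 1. The part of these markers in the Plat and Serpine2 values was not tested. Another gene on chromosome 16, described as tissue-type plasminogen activator-like (LOC100910418), had 0 to 3 reads per library. Reads common to both genes could have been assigned to either, and the level of Plat is uncertain to that extent.

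The urokinase gene Plau (ENSRNOG00000010516, chromosome 15, 3644769 to 3650819, minus strand) had 2 reads in either lv_nc library, 6 in lv_Mettl3 replicate 1 and 5 in lv_Mettl3 replicate 2, or normalized counts of 1.95, 1.85, 6.36 and 5.17. The lv_Mettl3 libraries held more reads, but the counting intervals of all 4 libraries overlapped, from 0.237 to 7.06 in lv_nc replicate 1 and from 2.33 to 13.8 in lv_Mettl3 replicate 1. Over the summed reads, 4 against 11, the ratio after scaling for depth was 3.03 with an exact 95% interval of 0.898 to 13.1. The limma log2 fold change, which is understated for such low values, was 1.22 (95% interval -0.07 to 2.50, SE 0.50, adjusted p = 0.489), and DESeq2 gave no adjusted p. A difference between the groups was not detectable at this depth.

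The inhibitor gene Serpine2 (ENSRNOG00000015461, chromosome 9, 85560863 to 85626094, minus strand) encodes protease nexin-1, a serpin that blocks thrombin as well as urokinase and tissue-type activator. Its normalized read counts were 492 in lv_nc replicate 1, 675 in lv_nc replicate 2, 443 in lv_Mettl3 replicate 1 and 465 in lv_Mettl3 replicate 2. As for Plat, lv_nc replicate 2 was the highest library, and the counting interval of lv_nc replicate 1 (450 to 537) overlapped those of both lv_Mettl3 libraries. The means were 584 ± 129 and 454 ± 15.5, a limma log2 fold change of -0.34 (95% interval -0.81 to 0.12, SE 0.18, adjusted p = 0.539) and a DESeq2 log2 fold change of -0.36 (SE 0.23, adjusted p = 0.655). Without lv_nc replicate 2 the DESeq2 log2 fold change of Serpine2 was -0.12, and without lv_nc replicate 1 it was -0.57. Only the sizes are given, as for Plat.

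Ratios between members within a library do not depend on the size factors. Per kilobase, Plaur stood at 1.84 and 1.18 times Plat in the lv_nc libraries, replicate 1 first, and at 2.47 and 2.93 times in those of lv_Mettl3. Relative to Serpine2 it was 4.37 and 3.04 times in lv_nc and 6.52 and 7.32 times in lv_Mettl3. Both ratios were higher in each lv_Mettl3 library than in each lv_nc library. This follows from the values of the members and adds no evidence. Each lv_Mettl3 library was already above each lv_nc library for Plaur and below each for Plat and Serpine2. With 2 libraries per group a two-sided exact permutation test cannot go below p = 0.333, so these ratios are given without a test.

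**Figure D2:**
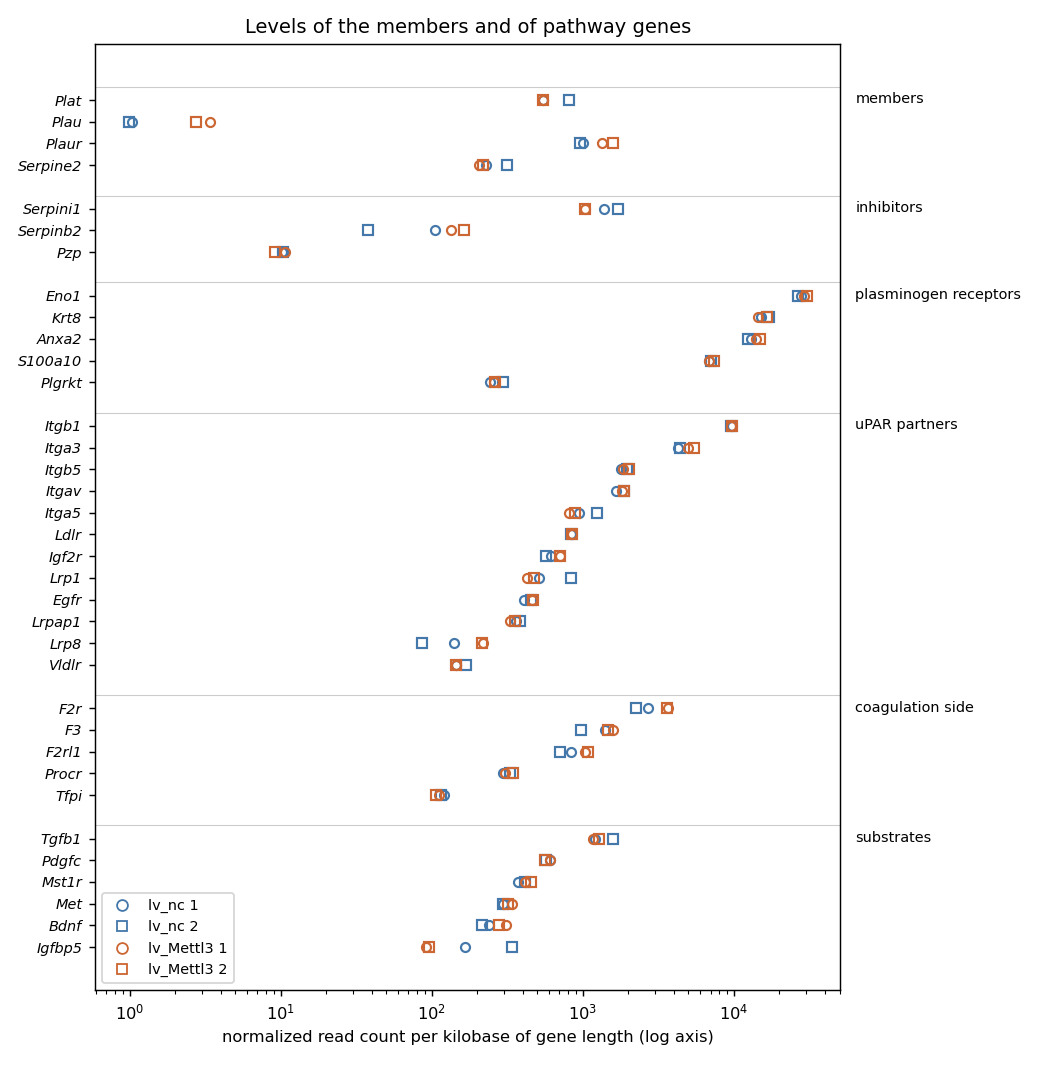
Normalized read counts per kilobase of gene length (log axis) for the 4 members and for the 31 genes of the wider pathway list with a mean normalized count of at least 20, by role. Circles and squares are replicates 1 and 2, blue for lv_nc and orange for lv_Mettl3. Plau lies far to the left of its receptor Plaur in all 4 libraries, and the plasminogen receptor genes Eno1, Krt8, Anxa2 and S100a10 lie to the right of every member.

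The wider pathway was read from a list of 67 other genes, of which 46 were in the table and 41 were tested. DESeq2 called 4 of the 31 with an adjusted p, 2 higher (Lrp8 and F2r) and 2 lower (Serpini1 and Igfbp5), where it called 2.52% of all genes, 1.45% higher and 1.07% lower. The counts by role below have the same background and rest on 12 genes or fewer each. Limma and edgeR each called 0, and at an unadjusted p under 0.05 limma had 8 of 41, where 10.5% of all genes were. The median limma log2 fold change of the tested genes was 0.03, against 0.01 over all genes tested, with 22 above 0 and 19 below. Of the genes for thrombin and fibrin, F2 (prothrombin) had at most 2 reads per library and Fgg (fibrinogen gamma chain) at most 13, and the symbols Plg and Fga matched no row.

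**Figure D3:**
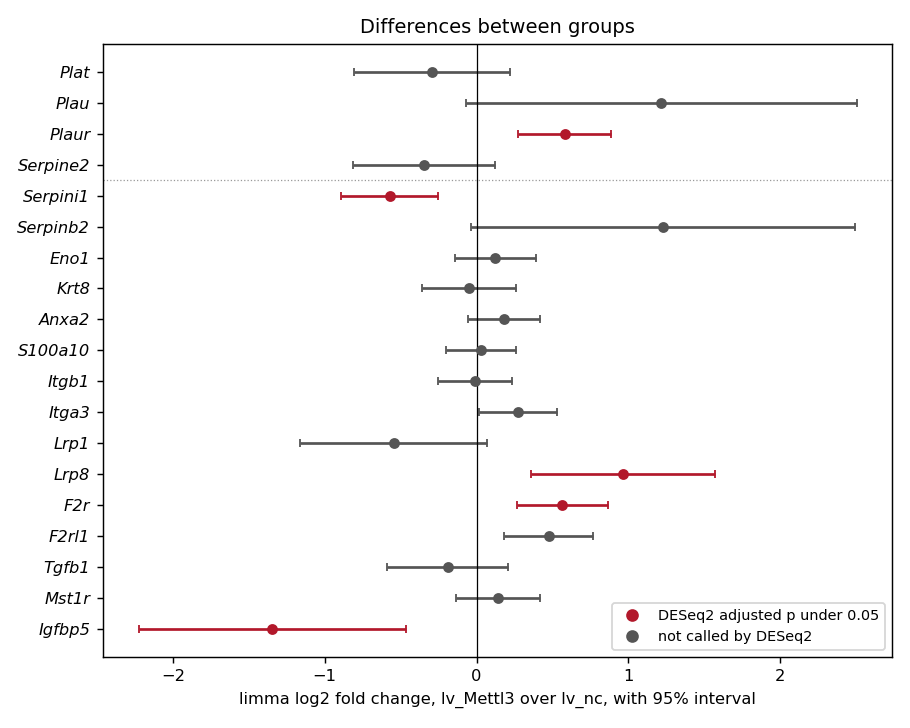
Limma log2 fold changes of lv_Mettl3 over lv_nc with 95% intervals for the 4 members (above the dotted line) and 15 named pathway genes, with red points for genes called by DESeq2. The intervals of Plaur, Serpini1, Lrp8, F2r and Igfbp5 lie on 1 side of 0, as do those of the uncalled Itga3 and F2rl1, and none of these genes was called by limma after adjustment.

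Among the inhibitors, the neuroserpin gene Serpini1, whose product targets tissue-type activator, fell in DESeq2. The lv_nc libraries held 4293 and 5299 normalized Serpini1 reads and the lv_Mettl3 libraries 3200 and 3212, with no overlap. The DESeq2 log2 fold change was -0.58 (SE 0.16) at an adjusted p of 0.0156, and the limma adjusted p was 0.385. Serpinb2, which encodes a serpin that inhibits urokinase, ranged more widely, from 205 and 73.9 in lv_nc to 264 and 319 in lv_Mettl3 (DESeq2 log2 fold change 1.07, SE 0.40, adjusted p = 0.171). Pzp, which encodes a protease inhibitor of the alpha-macroglobulin family and is named with its values already known, had a mean of 47.5 normalized reads and a DESeq2 log2 fold change of -0.05 (adjusted p = 0.998). DESeq2 called 1 of these 3 inhibitor genes, where it called 2.52% of all genes, and the median limma log2 fold change of the 5 tested was -0.06.

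Other activating proteases were scarce. Of the 7 protease genes listed 3 were in the table, and St14, which encodes the membrane protease matriptase, had 2, 4, 5 and 8 reads in the 4 libraries. F12, coagulation factor XII, had 2, 0, 0 and 1. The counts are too low to compare the groups.

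Among genes of plasminogen receptors, of which Eno1, Krt8 and Anxa2 were the most abundant of the list per kilobase, DESeq2 called 0 of 5, with a median limma log2 fold change of 0.03 and 0 of 5 at an unadjusted p under 0.05 in DESeq2 and in limma. Eno1, alpha-enolase, which binds plasminogen when displayed on the cell surface, had 52538 and 50331 normalized reads in lv_nc against 54962 and 57195 in lv_Mettl3. Krt8, a keratin with the same property, had 29513 and 33065 against 28296 and 32176. Anxa2 and S100a10, named after their values were seen, encode the annexin A2 complex that gathers plasminogen and tissue-type activator. Anxa2 had 17564 ± 566 in lv_nc and 19918 ± 763 in lv_Mettl3, and S100a10 had 3972 ± 54.3 and 4057 ± 236 (SD, n = 2). The limma 95% interval of the log2 fold change ran from -0.06 to 0.42 for Anxa2 and from -0.20 to 0.26 for S100a10.

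Among the partners and clearance receptors, DESeq2 called 1 of 12 (2.52% of all genes), Lrp8, an LDL receptor family member known for binding reelin and apolipoprotein E. Lrp8 rose in DESeq2, with 1037 and 640 normalized reads in lv_nc against 1606 and 1579 in lv_Mettl3. Its DESeq2 log2 fold change was 0.93 (SE 0.22) at an adjusted p of 0.00324, and its limma adjusted p was 0.399. The size for Lrp8 was 0.61 without lv_nc replicate 2 and 1.31 without lv_nc replicate 1. Lrp1, the main receptor for the uptake of protease and serpin complexes, named after its values were seen, held 7589 and 12334 in lv_nc against 6286 and 6984 in lv_Mettl3 (DESeq2 log2 fold change -0.59, SE 0.20, adjusted p = 0.114). As with Plat and Serpine2, lv_nc replicate 2 was the highest library of Lrp1. The integrin genes Itgb1 and Itga3, whose products pair with each other and bind the urokinase receptor laterally, had limma log2 fold changes of -0.01 (95% interval -0.25 to 0.23) and 0.27 (95% interval 0.01 to 0.53), with limma adjusted p of 0.977 and 0.471.

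On the coagulation side DESeq2 called 1 of 5 (2.52% of all genes), F2r, which encodes the thrombin receptor PAR1. F2r had 9215 and 7677 normalized reads in lv_nc against 12527 and 12361 in lv_Mettl3, a ratio of means of 1.47. Its DESeq2 log2 fold change was 0.56 (SE 0.15) at an adjusted p of 0.0110, and its limma adjusted p was 0.378. The ratio of Plaur to F2r per kilobase was 0.372 and 0.426 in lv_nc and 0.368 and 0.439 in lv_Mettl3, so the ranges of the groups overlapped. F2rl1, encoding the related receptor PAR2, held 2478 and 2084 in lv_nc against 3090 and 3233 in lv_Mettl3 (DESeq2 log2 fold change 0.47, SE 0.16, adjusted p = 0.0914). Of the substrates, DESeq2 called 1 of 6 against the same 2.52%, Igfbp5, an IGF binding protein that fell from 968 and 2001 to 535 and 559 in DESeq2, at a log2 fold change of -1.44 (SE 0.27) with an adjusted p of 2.88e-05, while the limma adjusted p was 0.405. The size for Igfbp5 was -0.83 without lv_nc replicate 2 and -1.87 without lv_nc replicate 1. Tgfb1, whose latent product plasmin can release, held 2578 and 3411 in lv_nc against 2486 and 2716 in lv_Mettl3, and Mst1r, the receptor for macrophage stimulating protein, 1526 and 1705 against 1693 and 1864; neither was called.

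The 4 calls among pathway genes held in DESeq2 without either lv_nc library, with adjusted p of at most 0.0255, and ended without either lv_Mettl3 library, with adjusted p of at least 0.0530. The number of list genes called moved with the library left out, as did the number called over the whole table. With 1 library in a group, that library is assumed to vary like the others. A call kept or lost in such a fit therefore does not show whether it rested on a single library.

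Genes whose values ran most like those of a member were ranked by the root mean square difference of mean-centred log2(value + 1) over the 4 libraries, among 9208 named genes (9209 for Plau) with a mean of 100 or more. Nearest to Plaur were Htra1, a secreted serine protease (0.0204), Kcnh6, a potassium channel (0.0232), and Mmp24, a membrane metalloproteinase (0.0321). Nearest to Plat were Fbxw4 (0.0103), Serpinb9, an intracellular inhibitor of granzyme B (0.0165), and Ypel5 (0.0212), each highest in lv_nc replicate 2. Nearest to Serpine2 were Arap1 (0.00859), Fuk, a fucose kinase (0.0127), and Vps11, a subunit of endosomal tethering complexes (0.0130). Nearest to Plau were Samd9 (0.0320), Glipr1 (0.0465) and Tlr1 (0.0929), a ranking that rests on at most 6 Plau reads per library. DESeq2 called Samd9, Glipr1 and Tlr1 and none of the other 9, where it called 2.52% of all genes. Samd9, Glipr1 and Tlr1 were picked for values that lay apart between the groups, so their calls say nothing about Plau. With 4 libraries such a ranking describes these libraries only.

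**Figure D4:**
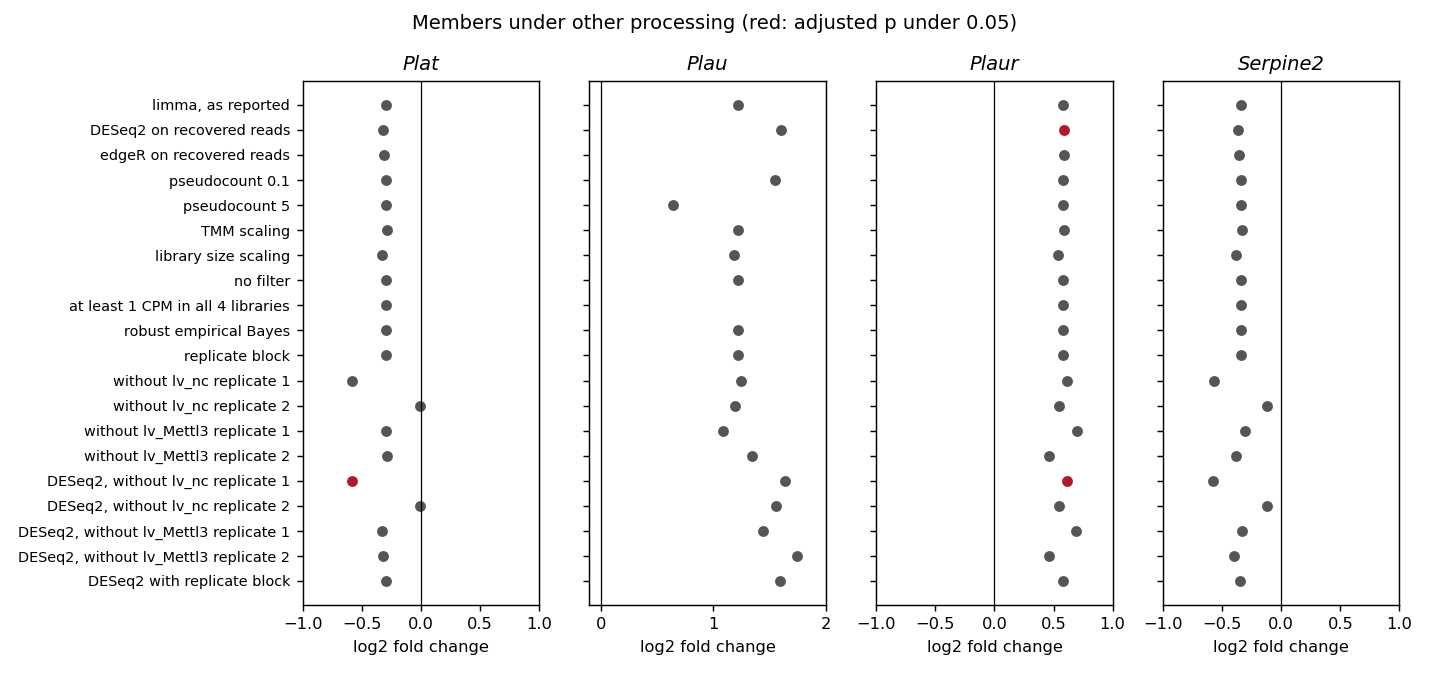
Log2 fold changes of the 4 members (horizontal axes, separate range for Plau) under each way of processing the data (rows), with red points where the adjusted p was under 0.05. Plaur stays between 0.46 and 0.70, Plat and Serpine2 move towards 0 without lv_nc replicate 2, and Plau has no point where a filter removed it.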

How the data were processed

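Libraries were grouped by title. Each library column of the deposited table is a signal: the authors had scaled gene reads with a single factor for that library. All values (100%, within 0.001 reads) were whole multiples of the library's smallest positive value, which returned the whole reads. CASAVA 1.4 and HISAT2 are named, per the submitters' processing notes; the counter, genome build and annotation are not known here. The log2 fold changes and p-values in the table were deposited by the authors.

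The main test was limma 3.58.1 with a trend on log2(value + 1), for genes reaching 1 in 2 or more libraries, adjusted over all genes (Benjamini-Hochberg, threshold 0.05). DESeq2 1.42.0 and edgeR 4.0.16 on the whole reads were alternatives, and DESeq2 calls are described since limma called 3 genes and DESeq2 318. DESeq2 refits without single libraries and with a replicate block were added after seeing the data. Scripts were tested on simulated counts (R 4.3.3, Python 3.11.15, matplotlib 3.10.9).

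The members and lists were chosen with earlier results of these data known. Named were the members, list genes called by limma or DESeq2, the 2 tested genes of each role with the highest mean normalized count (not per kilobase) and the 3 genes most like each member, without locus-type names and pseudogenes. Of 67 listed symbols 46 matched a row. A withheld gene of the list is not reported here. A shorter table of called genes was not used here.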

Additional observations from a re-analysis of the deposited data

How the results depend on the processing

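Over 74 refits of the 4 members, all kept the direction of the reported limma value. The groups did not overlap for any member. Leaving out a library or changing the pseudocount or filter could therefore not reverse a direction in limma. Without lv_nc replicate 2 the limma log2 fold change of Plat was -0.0056. Of the refits on all 4 libraries, only Plaur in DESeq2 reached an adjusted p under 0.05, at a log2 fold change of 0.58. Without lv_nc replicate 1 the DESeq2 values were 0.62 for Plaur and -0.58 for Plat. Without 1 library, limma log2 fold changes ran from -0.58 to -0.01 for Plat, 1.09 to 1.34 for Plau, 0.46 to 0.70 for Plaur and -0.57 to -0.12 for Serpine2. Those of DESeq2 ran from -0.58 to -0.01 for Plat, 1.44 to 1.74 for Plau, 0.46 to 0.69 for Plaur and -0.57 to -0.12 for Serpine2. Plau moved from 1.22 to 0.64 with a pseudocount of 5 and to 1.54 with 0.1, and had no value in edgeR or with at least 1 CPM in all 4 libraries, where it was filtered out.

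Limma called 3 genes over the whole table, 0 with a pseudocount of 0.1, 5 with at least 1 CPM in all 4 libraries, 24 with robust empirical Bayes and 0 without any 1 library; edgeR called 5. DESeq2 called 318, and without lv_nc replicate 1 or 2 it called 1547 or 217, and without lv_Mettl3 replicate 1 or 2 it called 56 or 61. Among pathway list genes limma called 0 and DESeq2 4, and without lv_nc replicate 1 or 2 DESeq2 called 12 or 4, and 0 without either lv_Mettl3 library.

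The replicate numbers are shared by the groups, but the labels do not say what a number marks. Same-numbered libraries deviated together (correlation 0.33 over 10051 genes), which 2 pairs cannot turn into a pairing. With the replicate block limma called 3 genes and no member, with Plaur at 0.58 (adjusted p = 0.298), Plat at -0.29, Plau at 1.22 and Serpine2 at -0.34. With the block DESeq2 called 272 genes and 5 list genes, and Plaur was at 0.58 (adjusted p = 0.0783).

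Depth limits Plau, at 2 to 6 reads per library.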
